A study of Mus musculus with 12 samples.

Results

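MicroRNA host transcripts are long RNAs that carry microRNA hairpins in an exon or an intron. Every gene whose name starts with Mir and ends with hg was taken, which gave 9 of the 27942 genes analysed, and the 5 with FPKM above 0 in at least 3 of the 6 libraries were described in full. FPKM is a read number divided by the length of the gene and the depth of the library. The 5 were Mir22hg, Mir17hg, Mir133a-1hg, Mir99ahg and Mir155hg. The cells were C2C12, a line of mouse myoblasts whose cells fuse to form myotubes in low serum. They were grown to 80% density in 10% fetal bovine serum and then differentiated in 2% horse serum for 7 days, either in the presence of 4-octyl itaconate (OI, an itaconate ester that enters cells) at 25 µmol/L or untreated (control). Each group had 3 libraries of total RNA, and whether these came from separate cultures is not given, so p-values measure the spread between libraries, which may be technical. A second set of 3 OI and 3 control samples was not analysed here.

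A host is transcribed as a long primary transcript. The Drosha complex cuts the hairpin out in the nucleus, Dicer trims it in the cytoplasm, and one strand of the duplex guides an Argonaute protein to messenger RNAs through its seed, bases 2 to 8 from the 5′ end. The libraries were made with an RNA-seq kit for long RNAs, so the values below are levels of the hosts and not of mature microRNAs. In muscle, miR-1 and miR-133a are the best-known products of such transcripts. Both are made under the control of myogenic transcription factors, and in C2C12 cells miR-1 is known to favour differentiation through Hdac4 and miR-133a to favour proliferation through Srf.

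The mature sequences that the described hosts carry are shown here so that their seeds, in capitals, can be compared. They come from RefSeq (GRCm38.p6), 5′ to 3′, with positions of the mature sequence, and only the arm usually taken as the guide is printed.
mmu-miR-22-3p (in Mir22hg, chr11:75463772-75463793, plus strand): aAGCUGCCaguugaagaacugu
mmu-miR-17-5p (in Mir17hg, chr14:115043684-115043706, plus strand): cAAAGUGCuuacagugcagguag
mmu-miR-20a-5p (in Mir17hg, chr14:115044183-115044205, plus strand): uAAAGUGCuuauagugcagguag
mmu-miR-18a-5p (in Mir17hg, chr14:115043867-115043889, plus strand): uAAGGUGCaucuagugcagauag
mmu-miR-19a-3p (in Mir17hg, chr14:115044048-115044070, plus strand): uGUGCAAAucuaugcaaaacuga
mmu-miR-19b-3p (in Mir17hg, chr14:115044358-115044380, plus strand): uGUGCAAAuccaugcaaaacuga
mmu-miR-92a-3p (in Mir17hg, chr14:115044476-115044496, plus strand): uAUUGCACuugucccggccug
mmu-miR-99a-5p (in Mir99ahg, chr16:77598940-77598961, plus strand): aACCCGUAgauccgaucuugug
mmu-let-7c-5p (in Mir99ahg, chr16:77599672-77599693, plus strand): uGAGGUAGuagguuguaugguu
mmu-miR-125b-5p (in Mir99ahg, chr16:77646279-77646300, plus strand): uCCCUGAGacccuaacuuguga
mmu-miR-155-5p (in Mir155hg, chr16:84714143-84714165, plus strand): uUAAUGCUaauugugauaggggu
Within Mir17hg, miR-17-5p and miR-20a-5p share 1 seed, miR-19a-3p and miR-19b-3p share another, and no seed printed here was common to 2 hosts. Among the 1679 mature names compared, which are not all mouse names, so that each count is a lower limit, the let-7c seed was found in 11, the miR-17 seed in 7, the miR-92a seed in 6 and the miR-125b seed in 5. The seeds of miR-22-3p and miR-155-5p were each found in 1 name. The sequences hosted by Mir133a-1hg are named only.

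The hosts differ in where the hairpin lies. By GENCODE M21 (GRCm38, also called mm10, the build the submitters' processing notes name), Mir22 lies in an exon of both annotated transcripts of Mir22hg (ENSMUSG00000085148, chromosome 11, 75461539 to 75466676, plus strand). The 6 hairpins Mir17, Mir18, Mir19a, Mir20a, Mir19b-1 and Mir92-1 of Mir17hg (ENSMUSG00000089726, chromosome 14, 115042879 to 115046727, plus strand) lie in its exon, between 792 and 1548 bases from the transcript start to the start of the hairpin. Mir155 lies in an exon of Mir155hg (ENSMUSG00000097418, chromosome 16, 84703167 to 84715245, plus strand). In Mir133a-1hg (ENSMUSG00000095438, chromosome 18, 10781723 to 10785883, minus strand), Mir1a-2 and Mir133a-1 are intronic, and the transcript itself lies inside Mib1 on the opposite strand with no shared exonic base. In Mir99ahg (ENSMUSG00000090386, chromosome 16, 77236317 to 77691403, plus strand), Mir99a, Mirlet7c-1 and Mir125b-2 lie in introns of 4 of its 17 annotated transcripts.

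**Figure D1:**
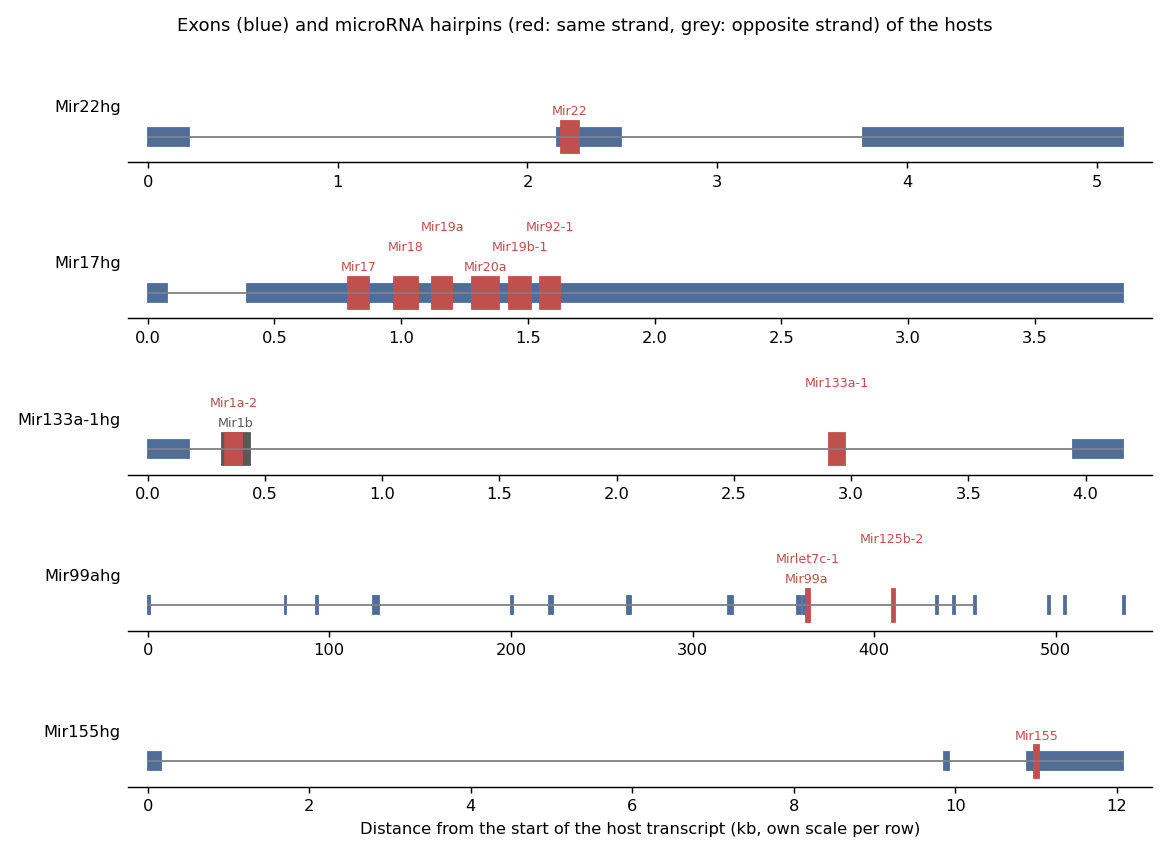
Exons and microRNA hairpins of the 5 hosts against distance from the start of the host transcript in kb, with its own scale in each row. Hairpins sit in exons of Mir22hg, Mir17hg and Mir155hg and in introns of Mir133a-1hg and Mir99ahg, whose annotated exons in GENCODE M21 run past the end given in the deposited tables.

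Library sizes recovered from the FPKM values lay between 24441000 and 36274000 reads. Whether a unit is a read or a read pair cannot be seen from them, and "read" is used below for either. With the annotated exonic length of each gene, between 98.3% and 98.5% of all values above 0 came out as whole reads (within 0.01). Read numbers of the hosts are therefore given beside FPKM. Their intervals cover counting error only, since reads without molecular identifiers are not independent molecules. Among abundant non-coding RNAs, control replicate 1 differed from the rest: Malat1, a nuclear long RNA, reached 1769 FPKM there, where the other 5 libraries held 312 to 429 FPKM. AY036118 was at 70761 FPKM in that library and at 691 to 2450 FPKM in the other 5, and Rn7s1, a signal recognition particle RNA gene, was at 480 and at 8.11 to 11.8 FPKM. The genes analysed took 23.9% of the reads of control replicate 1 and between 5.25% and 5.77% in the other 5 libraries. Of 13 myotube markers 2 had a value, the slow troponin gene Tnnc1 (24.7, 23.0 and 21.9 FPKM in OI, against 140, 110 and 128 FPKM in control) and H19. None of the 26 markers of myoblasts, proliferating cells, fibroblasts, adipocytes, osteoblasts and macrophages was among the genes analysed, so the cell type label was checked by those 2 alone.

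The 5 hosts spanned a wide range of levels. Mir22hg was lower in OI by 1.34-fold and passed the test over the 1737 genes at 1 FPKM or more in at least 3 libraries, where 2.76% of genes passed and 1.61% passed as lower in OI. Over the 7218 genes above 0 FPKM in at least 3 libraries, where 0.416% passed, none of the 5 hosts passed. The muscle host Mir133a-1hg had 1 read in the 3 OI libraries together and 15 in the 3 control libraries, and did not pass. Mir17hg, host of the growth-associated miR-17 to miR-92a cluster, had a mean of 0.983 ± 0.162 FPKM in OI and 0.729 ± 0.0849 FPKM in control (SD, n = 3 each) and did not pass. For Mir99ahg and Mir155hg the groups overlapped. In bulk RNA, fewer cells of a type and less RNA per cell cannot be told apart, which applies to each of these values.

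**Figure D2:**
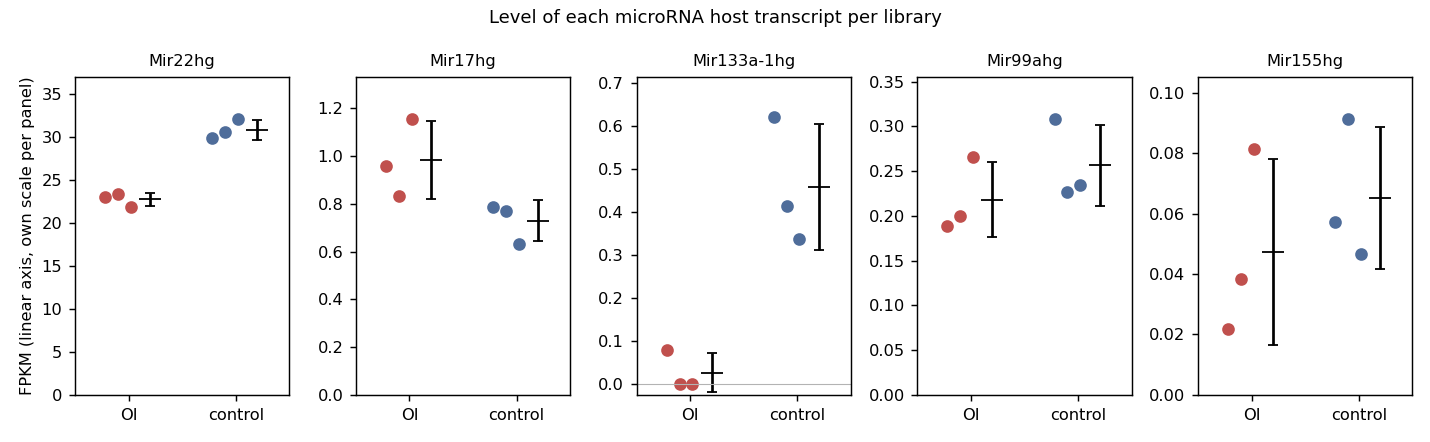
FPKM of each host in each library (points, replicates 1 to 3 from left to right) with the group mean and SD (n = 3, black), OI left of control and a scale of its own in each panel. The groups do not overlap for Mir22hg, Mir17hg and Mir133a-1hg, and overlap for Mir99ahg and Mir155hg.

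Of the 5 hosts 3 had groups that did not overlap, 2 lower and 1 higher in OI. Of the 2 lower hosts, Mir133a-1hg met the rule of 3 libraries above 0 through its 3 control libraries, with 1 OI library above 0. Its split and its p-value are therefore not independent of that rule. Over the 7218 genes with FPKM above 0 in at least 3 libraries, 16.2% did not overlap, 10.5% lower and 5.71% higher in OI. Over the 1737 genes at 1 FPKM or more in at least 3 libraries, 23.6% did not overlap, 12.5% lower and 11.1% higher in OI. An exact two-sided permutation test of 3 against 3 libraries cannot give less than p = 0.1, the value of all 3 hosts. The hosts were also fitted with all other genes by limma on log2(FPKM + 1), with p-values adjusted by Benjamini-Hochberg across every gene in the fit and called under 0.05. Only Mir22hg reached 1 FPKM in at least 3 libraries, the filter of the test over 1737 genes, and the other 4 were fitted over the 7218 genes, where 0.416% of genes passed and 0.249% passed as lower in OI. None of the 4 passed there (limma adjusted p from 0.142 for Mir133a-1hg to 0.896 for Mir99ahg).

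**Figure D3:**
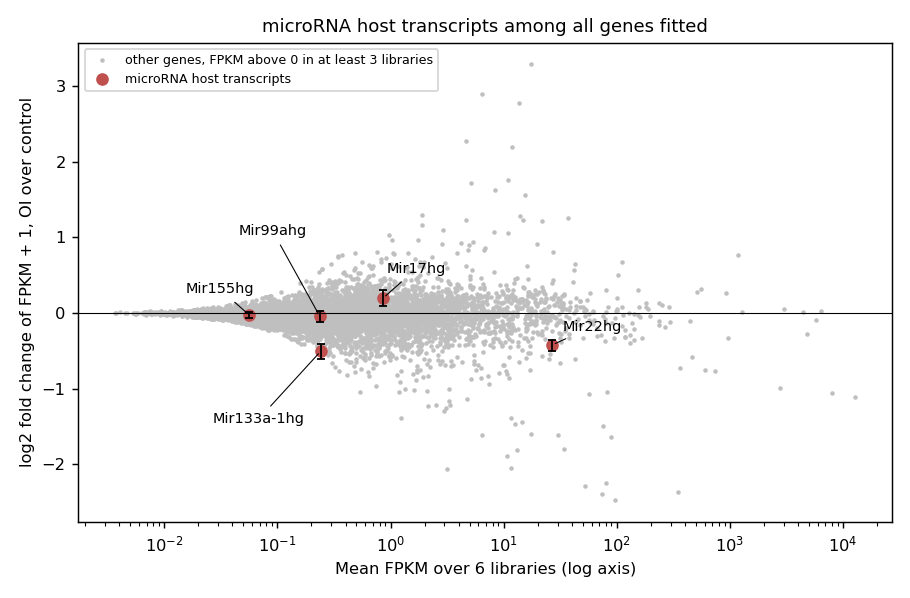
log2 fold change of FPKM + 1 (OI over control) against mean FPKM over 6 libraries (log axis) for the 7218 genes with FPKM above 0 in at least 3 libraries, with the 5 hosts in red and their SE as bars. Mir22hg lies at -0.42 at a mean of 26.8 FPKM, Mir133a-1hg at -0.50 and Mir17hg at 0.20, and Mir99ahg and Mir155hg lie within 0.05 of 0. Adding 1 FPKM understates the change of low genes, here every host except Mir22hg.

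Mir22hg was the most abundant host and was lower with OI. Its product miR-22 is abundant in striated muscle and is known in mice for a role in hypertrophic growth of the heart. The level of Mir22hg was 23.0, 23.4 and 21.9 FPKM in OI replicates 1 to 3, against 29.8, 30.5 and 32.1 FPKM in control replicates 1 to 3. The highest OI library lay below the lowest control library. These values rest on 1419, 1630 and 1081 reads in OI and 1403, 1791 and 1853 reads in control. The spread between libraries was 3.37% of the mean in OI and 3.80% in control, where counting alone gives 2.695% and 2.438%. The log2 fold change was -0.42 ± 0.07 (SE), against a median of -0.02 over all tested genes, with a limma adjusted p of 0.0302. In that test 2.76% of the 1737 genes passed and 1.61% passed as lower in OI, and Mir22hg ranked 35 by p-value. As a read rate it was 0.739 of control (95% interval 0.709 to 0.770).

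The direction of Mir22hg was lower in OI in each of the 19 settings run, with log2 fold changes between -0.45 and -0.37, but its call was close to the threshold. Leaving out any single library ended the call (limma adjusted p from 0.0676 without OI replicate 1 to 0.125 without control replicate 2 or OI replicate 3). The genes called among all 1737 fell as well, from 48 to between 15 and 27, so the loss is not particular to Mir22hg. Without control replicate 1, the library that stood apart, the log2 fold change was -0.45 (limma adjusted p = 0.0848). It was also lost with quantile normalization (limma adjusted p = 0.0536), with trend=FALSE (0.0549), over the 7218 genes of the lower filter (0.0947) and with no filter (0.166). Median-of-ratios scaling, robust=TRUE, pseudocounts of 0.1 and 5 and a filter at 5 FPKM kept it (limma adjusted p from 0.0118 to 0.0342). The lowest of these values came from the filter at 5 FPKM, where 49 of 591 genes passed. Limma voom on reads recovered with the deposited gene length also kept it (adjusted p = 0.0189, where 2.02% of genes passed). On whole reads with exonic length the limma voom adjusted p was 0.0191, where 1.96% of genes passed. Of the exonic bases of Mir22hg 206 of 1924, or 10.7%, are shared with exons of Tlcd2, a membrane protein gene on the same strand. Reads in those bases cannot be assigned to either gene, and Tlcd2 was not analysed here. Tlcd2 runs from 75461715 to 75470899, so most of the remaining exonic bases of Mir22hg lie in introns of Tlcd2. Reads of unspliced Tlcd2 RNA there would also count for Mir22hg, and their share was not tested.

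**Figure D4:**
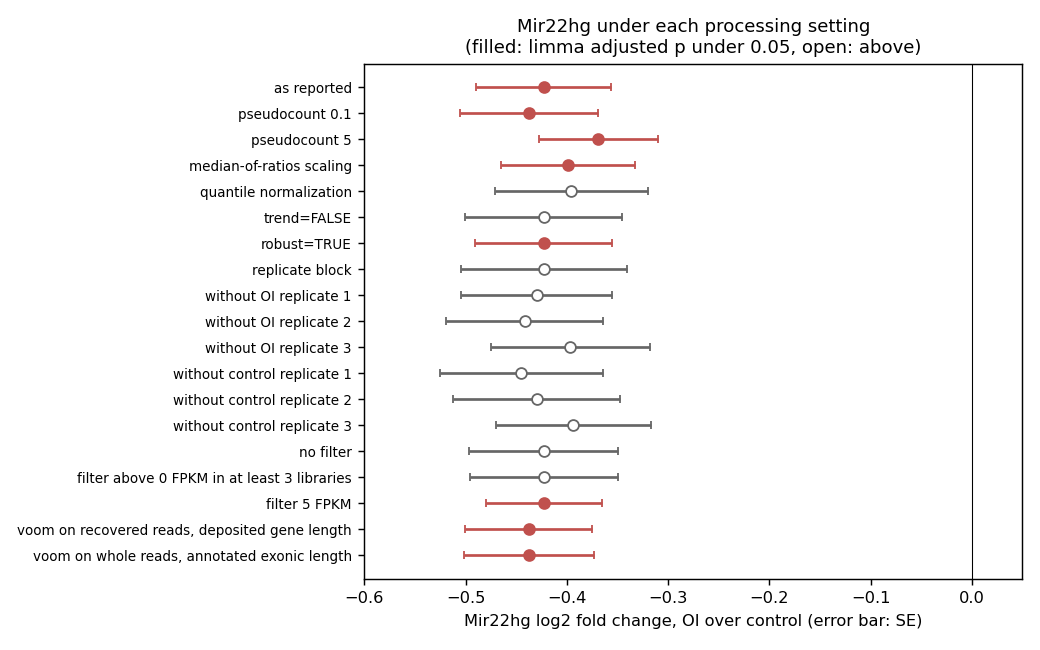
Mir22hg log2 fold change (OI over control) with its SE under each processing setting. Filled points have a limma adjusted p under 0.05, and the voom points are on the scale of log2 reads with no added pseudocount of 1 FPKM. Every value lies between -0.45 and -0.37, and 11 of the 19 points are open.

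By Pearson correlation of log2(FPKM + 1) over the 6 libraries, the 3 named genes most like Mir22hg among 432 compared were H1f0 (r = 0.995), Klhl33 (r = 0.985) and AC157554.3 (r = 0.983). H1f0, the linker histone H1.0 that is abundant in non-dividing cells, was at 111, 116 and 112 FPKM in OI, against 146, 148 and 155 FPKM in control. Klhl33, a kelch-family gene, was at 1.79, 1.94 and 1.79 FPKM in OI, against 4.83, 4.41 and 4.84 FPKM in control. AC157554.3, an antisense RNA, was at 0.390, 0.778 and 0.671 FPKM in OI, against 5.45, 5.14 and 6.48 FPKM in control. All 3 share with Mir22hg the split between the groups, so the 6 points form 2 clusters and r describes that split.

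Mir133a-1hg, the host of the hairpins Mir1a-2 and Mir133a-1, was at 0.0788, 0 and 0 FPKM in OI, against 0.621, 0.415 and 0.338 FPKM in control. It had 1, 0 and 0 reads in OI replicates 1 to 3, against 6, 5 and 4 reads in control replicates 1 to 3, and so entered the fit with 4 libraries above 0, of which 3 were controls. Every control library lay above every OI library. A count of 0 allows up to 0.209 FPKM in OI replicate 2 and 0.296 FPKM in OI replicate 3 (3 reads per library), both below the lowest control value. That control value rests on 4 reads and has a counting error of its own. No such limit was computed for OI replicate 1, with 1 read, so these limits do not separate every library beyond counting error. As a read rate over the 3 libraries of each group, OI was at 0.0602 of control (95% interval 0.00143 to 0.391, exact). The log2 fold change was -0.50 ± 0.10 (SE) with a limma adjusted p of 0.142 and an unadjusted p of 0.00153. It was -2.17 with a pseudocount of 0.1 (limma adjusted p = 0.0974, where 0.596% of genes passed and 0.346% passed as lower in OI) and -0.12 with a pseudocount of 5 (0.189).

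Leaving out 1 library gave log2 fold changes of Mir133a-1hg from -0.56 to -0.42. Without control replicate 1, where the level was highest, it was -0.42 (limma adjusted p = 0.170). Mir1a-2, one of its hairpins and the only one with a value of its own, had 1 read in OI replicate 1 and 2 reads in control replicate 1, with 0 in the other 4 libraries. No difference was detectable there at this depth. Since the intronic hairpins are not part of the spliced transcript, the reads of Mir133a-1hg lie in its 395 exonic bases only. Mib1 runs through these bases on the opposite strand, and no strand setting for counting is stated. Whether some of these reads came from unspliced Mib1 RNA was not tested.

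Mir17hg carries the miR-17 to miR-92a cluster, which is activated by MYC and is frequent in dividing cells. It was at 0.960, 0.834 and 1.16 FPKM in OI, against 0.787, 0.769 and 0.632 FPKM in control. The lowest OI library lay above the highest control library by a small margin. It had 109, 107 and 105 reads in OI, against 68, 83 and 67 reads in control. As a read rate OI was at 1.33 of control (95% interval 1.12 to 1.59). The libraries spread by 16.5% in OI and 11.6% in control, where counting gives 9.67% and 11.7%. The log2 fold change was 0.20 ± 0.11 (SE), with a limma adjusted p of 0.642, and 0.41 ± 0.18 on whole reads (limma voom adjusted p = 0.369, where 1.96% of genes passed). Its direction was higher in OI under each alternative and without each library, with log2 fold changes from 0.06 with a pseudocount of 5 to 0.41 with voom, and none passed. Without control replicate 1 it was 0.22 (limma adjusted p = 0.614).

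Mir99ahg carries miR-99a, let-7c and miR-125b. The let-7 family is known to repress growth genes and to rise with differentiation in many tissues. Mir99ahg was at 0.188, 0.200 and 0.266 FPKM in OI, against 0.309, 0.226 and 0.235 FPKM in control. OI replicate 3 lay above 2 of the 3 control libraries, so the groups overlapped. It had 85, 102 and 96 reads in OI, against 106, 97 and 99 reads in control. These numbers came out whole with a length of 14045 bases, not with the 14303 exonic bases of GENCODE M21 or the 3422 bases deposited. The read rate in OI was 0.846 of control (95% interval 0.717 to 0.9985). The libraries spread by 19.2% in OI and 17.7% in control, where counting gives 10.3% and 9.97%, and the log2 fold change was -0.04 ± 0.08 (SE; limma adjusted p = 0.896). On whole reads it was -0.24 ± 0.19 (limma voom adjusted p = 0.619). Without control replicate 1 it was -0.02 (limma adjusted p = 0.991), and with quantile normalization it turned to 0.0044 (limma adjusted p = 0.996).

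The introns of Mir99ahg hold 12 single-exon genes on its strand that share no exonic base with it. Their reads were added up per library, a sum chosen after the values were seen. The sum was 61, 71 and 22 reads in OI, or 1.90, 1.96 and 0.857 RPM (reads scaled to library size as in FPKM, with no division by gene length), against 132, 63 and 65 reads in control, or 5.40, 2.06 and 2.17 RPM. Every OI library was below every control library, but the gap between 1.96 and 2.06 RPM is narrow, and control replicate 1 stood far above the other control libraries. Such a split, lower in OI, was found in 10.5% of the 7218 genes above 0 FPKM in at least 3 libraries. That share is of single genes, and none was computed for sums over neighbouring genes. The exonic reads of Mir99ahg in that library were at 4.34 RPM, against 3.18 and 3.30 RPM in control replicates 2 and 3 and between 2.65 and 3.74 RPM in OI. Malat1 was also highest in control replicate 1, and whether that is related to the intronic sum was not tested. Gm11146, on the opposite strand, shares 21 exonic bases with Mir99ahg and was not analysed here. C130023A14Rik, which starts within the Mir125b-2 hairpin, had 13, 24 and 7 reads in OI, against 41, 32 and 13 reads in control. Scaled, these were 0.131, 0.214 and 0.0883 FPKM in OI, against 0.543, 0.340 and 0.140 FPKM in control. The groups overlapped, as OI replicate 2 lay above control replicate 3, and control replicate 1 was again highest. In the 2 intronic genes on the opposite strand there were 0, 2 and 0 reads in OI and 6, 3 and 2 reads in control.

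**Figure D5:**
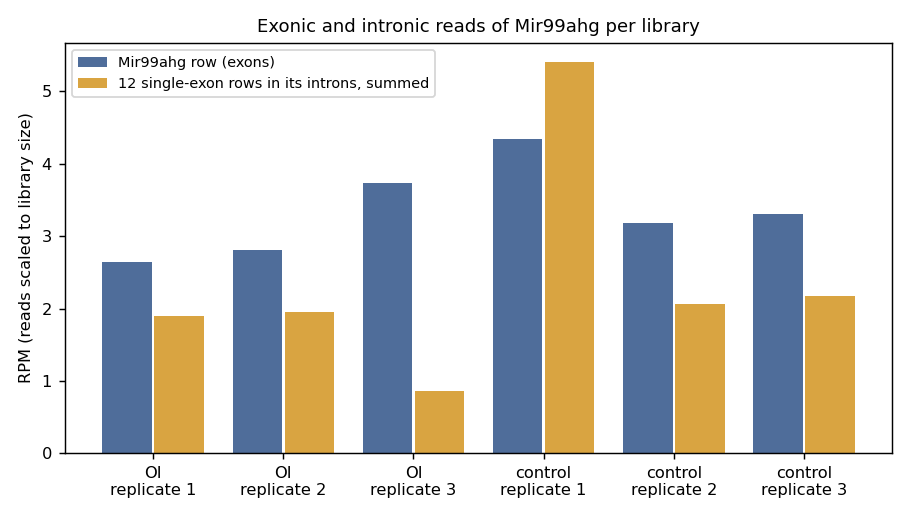
Reads scaled to library size (RPM) of Mir99ahg (blue) and summed over 12 single-exon genes in its introns (yellow), for 3 OI and 3 control libraries. Control replicate 1 is highest in both, at 4.34 and 5.40 RPM, and OI replicate 3 is lowest in the intronic sum, at 0.857 RPM.

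Mir155hg, whose miR-155 is known from activated immune cells, was the lowest of the 5. It was at 0.0217, 0.0385 and 0.0815 FPKM in OI, against 0.0571, 0.0915 and 0.0465 FPKM in control, which rest on 1, 2 and 3 reads in OI and 2, 4 and 2 reads in control. The groups overlapped, and the read rate in OI was 0.677 of control with a 95% interval from 0.194 to 2.23. No difference was detectable at this depth (log2 fold change -0.02 ± 0.04, SE; limma adjusted p = 0.871). Without control replicate 1 it was -0.03 (limma adjusted p = 0.887). By mean level over the 6 libraries the order was Mir22hg (26.8 FPKM), Mir17hg (0.856), Mir133a-1hg (0.242), Mir99ahg (0.237) and Mir155hg (0.0561). Within the control group no neighbours in that order overlapped. Within OI the order of the lower hosts was Mir99ahg, Mir155hg and Mir133a-1hg, and the ranges of Mir155hg and Mir133a-1hg overlapped. Mir22hg ranked 34 of 3889 long non-coding RNAs with any read by mean level, and Mir155hg ranked 2426.

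The remaining 4 hosts, Mir9-3hg, Mir124a-1hg, Mir124-2hg and Mir142hg, were at 0 in all 6 libraries. They hold Mir9-3, Mir124a-1 with Mir3078, Mir124a-2 and Mir142 on their own strand, and of these Mir9-3, Mir3078, Mir124a-2 and Mir142 had a value of their own, which was 0 in every library. The products of the first 3, miR-9 and miR-124, are known from nervous tissue, and miR-142 from blood cells. Over all 6 libraries together, a count of 0 allows up to 0.00279 FPKM for Mir124-2hg, 0.00349 FPKM for Mir124a-1hg and 0.00384 FPKM for Mir9-3hg. For Mir142hg, with 269 exonic bases, it allows up to 0.0623 FPKM, above the mean level of Mir155hg.

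Other long RNAs that host microRNAs but are not named after one were listed for comparison. Of 12 listed, 9 had a row, 2 reached the 1 FPKM filter and 1 of these passed, lower in OI, where 2.76% of the 1737 genes tested passed and 1.61% passed as lower. That gene was H19, the imprinted host of Mir675, at 24.1, 32.1 and 25.9 FPKM in OI, against 136, 131 and 131 FPKM in control (log2 fold change -2.25 ± 0.11, SE; limma adjusted p = 0.00023). Ftx, an X-linked host, was at 1.39, 1.44 and 1.49 FPKM in OI, against 2.26, 1.92 and 1.85 FPKM in control. Its groups did not overlap, as in 23.6% of the 1737 genes, and it did not pass (log2 fold change -0.30 ± 0.09, SE; limma adjusted p = 0.171). The 25 listed genes of microRNA processing and silencing, such as Drosha, Dicer1 and Ago2, and the 8 listed protein-coding hosts of muscle microRNAs were not among the genes analysed.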

How the data were processed

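The authors deposited 1 table of FPKM values per library. Build mm10 and the programs StringTie 1.3.3b, HISAT2 2.1.0 and cutadapt 2.7 are named, per the submitters' processing notes. No strand setting for counting is stated there. One row with broken annotation was left out. Library sizes were recovered from the spacing of FPKM times length in single-exon genes (100% within 0.01 of a whole number), and reads from FPKM, exonic length and library size. The members and lists were chosen with earlier results of these data known. Every gene matching the name rule is named, with the hairpins it hosts on its own strand, genes that share exonic bases with it and the 3 named genes most correlated with the tested host. MicroRNA names from chromosome 18 were not used in the seed counts. The test was limma 3.58.1 (R 4.3.3) on log2(FPKM + 1), trend=TRUE, two-sided, over genes at 1 FPKM or more in at least 3 libraries. Fold changes on this scale understate the change of low genes. On simulated data with 1737 genes it recovered 1 of 50 genes at a log2 change of 0.25, 19 at 0.5, 46 at 1 and 45 at 2, and called 4 of 1537 unchanged genes. The simulated noise was independent between genes. A shift shared by many genes of 1 library was not simulated, so these numbers do not give the error rate in the real data. Other steps used SciPy 1.17.1, pandas 2.3.3 and Matplotlib 3.10.9 under Python 3.11.15. Intervals for read rates are exact binomial (Clopper-Pearson).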

Additional observations from a re-analysis of the deposited data

How the results depend on the processing

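The number of genes past the threshold was 48 (20 higher and 28 lower in OI). It was 17 with the replicate number as a block, 14 with no filter, 30 with the filter above 0 FPKM and 15 to 27 without 1 library, and within 1.5 times of 48 in the other settings. The log2 fold change of Mir22hg no longer passed with quantile normalization (-0.40), trend=FALSE (-0.42), the replicate block (-0.42, limma adjusted p = 0.157), no filter (-0.42, 0.166), the filter above 0 FPKM (-0.42) or without 1 library (-0.45 to -0.39); the lower filters put more genes under the adjustment, and the other causes were not tested. Deviations of same-numbered libraries from their group means correlated at 0.05, 0.14 and -0.08, so the numbers were not taken as pairs, and only replicate 2 correlated best with its own number. Mir99ahg turned to 0.0044 with quantile normalization, which was the only change of direction among the 5 hosts in the settings run, and the cause was not tested. Mir133a-1hg and Mir155hg fell below the minimum of 10 reads set for voom and have no voom value. Voom on whole reads with annotated exonic length was chosen after seeing the data. The depth limits Mir133a-1hg and Mir155hg to 16 and 14 reads in all.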
